A study of Mus musculus with 13 samples.

Results

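The regions described here are stretches of distal intergenic sequence that carried H3K27me3 in both libraries of the mark and met no listed peak of RING1B or CBX8, which are subunits of Polycomb repressive complex 1 (PRC1). They were chosen by the deposited peak lists: a peak of H3K27me3 replicate 1 annotated as distal intergenic, under 10 kb wide, overlapping a peak of H3K27me3 replicate 2 by at least 1 bp, and overlapping no peak of either RING1B or either CBX8 list. Of the 68898 peaks of H3K27me3 replicate 1, 18224 (26.5%) met this rule, and they are called PRC1-free distal regions below. The name means only that no RING1B or CBX8 peak was listed there, and other PRC1 subunits were not mapped. Since the H3K27me3 lists and the lack of a RING1B or CBX8 peak chose them, those values are descriptions and carry no test.

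The study mapped the chromatin of wild-type olfactory basal cells of C57BL6 mice by chromatin immunoprecipitation with sequencing (ChIP-seq). The cells had been sorted from the adult olfactory epithelium, the tissue of the nose that replaces its sensory neurons throughout life, by the surface receptor c-KIT. They were grown attached to gelatin-coated plastic as lines 1, 2 and 3, in a medium with EGF, FGF2, heparin, BMP4 and SB431542, an inhibitor of TGF-beta type I receptors. Of 13 libraries, 8 were immunoprecipitations with a peak list each (2 per antibody) and 5 were inputs, which enter here only through fold values. H3K27me3 and RING1B replicate 1 came from line 1 at passage 12, and H3K27me3 replicate 2 from line 2 at passage 11. RING1B replicate 2 and CBX8 replicate 1 came from line 2 at passage 19 and H3K27ac replicate 1 from line 2 at passage 13. CBX8 and H3K27ac replicate 2 came from line 3 at passage 14. Some pairs of libraries share a culture, but no culture was mapped with all 4 antibodies, and the replicates of an antibody differ in line or passage. Between libraries of different cultures, antibody and culture cannot be told apart, and an overlap of peaks from different libraries does not show that the marks lay in the same cells.

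H3K27me3 is set by Polycomb repressive complex 2 and marks silenced genes and the sequence around them. PRC1 holds RING1B, a ubiquitin ligase acting on histone H2A, and in its canonical form a CBX protein such as CBX8, whose chromodomain can bind H3K27me3. H3K27ac sits on the same lysine as H3K27me3, marks active promoters and enhancers, and excludes H3K27me3 from the tail it is on.

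The sequence of a region could be read only where a RefSeq promoter window of GRCm38.p6 (mm10), from 250 bases before to 50 bases after a gene's start, lay wholly inside it. That was so for 184 windows of 160 genes in 163 regions, and 168 of the 184 windows belong to long non-coding RNAs, so the regions hold starts that the authors' annotation did not count as promoters. The 250 bases before the start of 4 of these genes are shown 5′ to 3′, with each CG dinucleotide, the site of DNA methylation and the feature that makes up CpG islands, in capitals. They were picked to show CG-rich and CG-poor starts, and run from 22 to 4 CG. Hmcn2, a gene of an extracellular matrix protein, has 22 CG in chr2:31314082-31314331 (+ strand) and lies in a region 9351 bp wide with H3K27me3 folds of 4.50 and 4.64. Lonrf2, a gene of a RING finger protein, has 14 in chr1:38836688-38836937 (− strand), in a region with folds of 4.24 and 4.15. Gm31317, a long non-coding RNA, has 11 in chr11:98314136-98314385 (− strand), in a region with folds of 3.73 and 5.83 that the authors assigned to Neurod2, a transcription factor of neurons. Gm31432, a long non-coding RNA, has 4 in chr9:46389212-46389461 (+ strand), in a region with folds of 3.90 and 4.22.
Hmcn2: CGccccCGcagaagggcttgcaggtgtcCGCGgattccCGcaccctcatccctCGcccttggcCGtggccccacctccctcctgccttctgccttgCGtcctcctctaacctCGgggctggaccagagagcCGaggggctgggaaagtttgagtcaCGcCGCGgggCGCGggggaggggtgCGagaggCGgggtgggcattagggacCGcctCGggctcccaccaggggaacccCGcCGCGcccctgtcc
Lonrf2: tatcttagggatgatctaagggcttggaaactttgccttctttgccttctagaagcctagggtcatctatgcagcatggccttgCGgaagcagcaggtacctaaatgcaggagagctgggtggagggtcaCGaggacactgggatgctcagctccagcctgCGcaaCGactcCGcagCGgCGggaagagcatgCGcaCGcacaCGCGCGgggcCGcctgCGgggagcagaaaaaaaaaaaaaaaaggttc
Gm31317: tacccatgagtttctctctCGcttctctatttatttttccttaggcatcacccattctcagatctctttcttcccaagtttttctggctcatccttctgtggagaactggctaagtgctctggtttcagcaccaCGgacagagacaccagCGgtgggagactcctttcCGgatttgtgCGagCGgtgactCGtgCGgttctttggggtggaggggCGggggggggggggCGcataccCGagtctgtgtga
Gm31432: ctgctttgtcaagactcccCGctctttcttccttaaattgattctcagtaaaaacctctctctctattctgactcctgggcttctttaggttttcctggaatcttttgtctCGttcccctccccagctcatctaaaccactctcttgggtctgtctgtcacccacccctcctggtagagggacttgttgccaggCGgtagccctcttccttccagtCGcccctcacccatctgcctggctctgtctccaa

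The CG-poor kind was the common one. Windows of 300 bases inside PRC1-free distal regions held a median of 4 CG (quartiles 3 and 7) at a GC content of 50.3%, and 4.89% held 15 or more. The motif CG, which reads the same on both strands, was found at least once in 95.1% of these windows and in 94.6% of all 32851 RefSeq windows, of which 34.6% held 15 or more. Windows inside distal regions that did meet RING1B or CBX8 numbered 178, with a median of 7 CG, and 16.9% held 15 or more. The type of gene moves with these values. Among long non-coding RNAs alone, the share with 15 or more was 2.98% in PRC1-free distal regions, 6.76% in distal regions with PRC1 and 12.3% over all windows, and the medians were 4, 6 and 4. The counts behind these shares are small: over all gene types 9 windows in PRC1-free distal regions and 30 in distal regions with PRC1 held 15 or more, and among long non-coding RNAs 5 and 10.

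Before these regions, the libraries themselves were compared. Peaks numbered 123155 and 112175 in the H3K27ac lists, 68898 and 101129 in those of H3K27me3, 7578 and 32918 in those of RING1B and 9926 and 77417 in those of CBX8, and the read depth behind them is unknown. Against markers of the labelled cell type, the promoters of Sox2, a progenitor factor, and of the basal keratins Krt5 and Krt14 carried H3K27ac folds of 23.6 and 23.9, 11.4 and 10.5, and 9.61 and 8.003. Trp63, the regulator of horizontal basal cells, had 2.98 and 5.54. The promoter of Kit, the receptor of the sort, carried H3K27me3 in both replicates (4.70 and 4.05) and H3K27ac in replicate 2 alone (2.45). The promoter of Omp, which marks mature sensory neurons of the nose, also carried H3K27ac in both replicates (3.61 and 3.65). These folds were below those of Sox2, Krt5 and Krt14. They were above the medians of the 2 lists (2.86 and 3.23), which cover all peaks and not promoters alone.

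Each step of the rule can be followed by its count. The 68898 peaks fell to 32934 distal intergenic ones, 32854 of them under 10 kb, and 21893 of those overlapped replicate 2. The last step, removing regions with RING1B or CBX8, took out 3669. CBX8 replicate 2, the longest of the 4 PRC1 lists, touched 2970 of these and was the only list to touch 2128, whereas RING1B replicate 1 touched 307 and all 4 lists touched 189. What counts as PRC1-free therefore rests mainly on CBX8 replicate 2, and without that list the rule would keep 20352 regions.

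At the width limit, the widest regions inside were one at Mroh5 (9815 bp), at Kif26a (9720 bp) and at Gm11468 (9693 bp), while the nearest outside lay at Tpbgl (10278 bp), Dio3os (10561 bp) and Alx4 (10697 bp). Only 12 regions were left out by width alone. At the PRC1 limit, regions at Efcab3 and Map4k3 lay 1 bp from a CBX8 replicate 2 peak and were kept, and regions at Tmem26, 1810007D17Rik and Vax1 were among those with the smallest overlap, down to 1 bp, and were left out. At the replicate limit, 342 regions shared under 50 bp with a replicate 2 peak.

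PRC1-free distal regions had about the width and height of the H3K27me3 peaks as a whole. Their median width was 718 bp (5th to 95th percentile 187 to 2812 bp), and together they covered 18.1 Mb, 22.5% of the sequence under H3K27me3 replicate 1. The fold over control had a median of 3.07 in replicate 1, between 2.06 and 5.24, and of 2.95 in replicate 2, between 1.68 and 8.40 (mean of the medians 3.01 ± 0.0808, SD, n = 2). In 14928 regions (81.9%) the fold was under 3.5 in both replicates, and in 16 it was 4 or more in both. The authors' −log10 q-value in replicate 1 had a median of 1.60, and 23.1% of the regions reached 2, against 24.5% of all H3K27me3 peaks of that replicate. When both H3K27me3 lists were held to that stricter limit, 3250 regions met the rule, so most of the regions depend on peaks weaker than that. Over all H3K27me3 replicate 1 peaks the median width was 681 bp and the median fold 3.05, and in PRC1-free intron regions 696 bp and 3.06. Distal regions that met RING1B or CBX8 were wider, with a median of 1353 bp, and their median folds were 3.18 and 3.14. The 10159 PRC1-free distal peaks under 10 kb that replicate 2 lacked were narrower, with a median of 459 bp, and had a median fold of 2.96.

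The heights of the same region in the 2 replicates were only loosely related. Over the 18224 regions, Pearson's r between the folds was 0.16 and Spearman's rho 0.18, a description over regions that share 2 libraries. Width and fold had an r of 0.17 in replicate 1 and 0.18 in replicate 2. Fold was higher in replicate 1 at 63.6% of the regions.

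**Figure D1:**
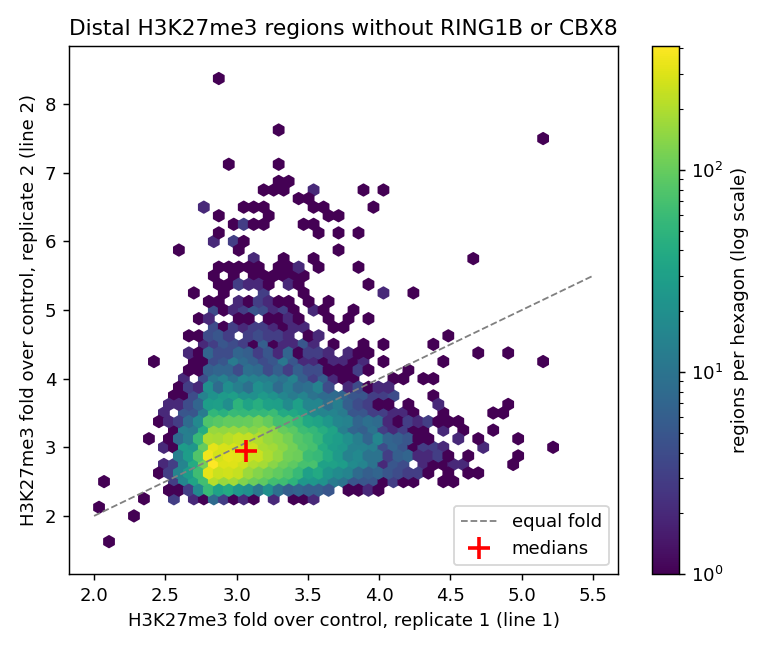
H3K27me3 fold over control of each PRC1-free distal region in replicate 1 (horizontal) and in the highest overlapping peak of replicate 2 (vertical), with hexagons coloured by the number of regions on a log scale and a dashed line at equal fold. Most regions crowd near the medians of 3.07 and 2.95, with arms of high values in either replicate and few regions high in both.

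The regions with the highest fold in their weaker replicate lay beside genes of varied roles. A region of 1025 bp assigned to Tmem33, a gene of an endoplasmic reticulum membrane protein, had folds of 4.66 and 5.69 (chr5:67210087-67211111, 49454 bp from the start). The nearest peak of each PRC1 list was close to it, at 1181 and 3492 bp for CBX8 and 4103 and 4095 bp for RING1B. A region of 9351 bp assigned to Ncs1, a neuronal calcium sensor, had 4.50 and 4.64 (chr2:31310863-31320213), with an H3K27ac peak in replicate 1 alone (2.27). This is the region that holds the Hmcn2 start shown above, and its nearest PRC1 peak was 4740 bp away. A region of 347 bp near Evx2, a homeobox gene beside the HoxD cluster, had 4.40 and 4.51 (chr2:74643336-74643682), and its nearest PRC1 peak was 4262 bp away. The region holding the Lonrf2 start had 4.24 and 4.15 (chr1:38835636-38837855, 2220 bp wide), and its nearest PRC1 peak was 24847 bp away. The highest pair of values, 5.18 and 7.50, belongs to a region of 244 bp near Alx1, a homeobox gene of the face (chr10:103033184-103033427), but it shares a mere 0.410% of its bases with the replicate 2 peak and lies 760 bp from a RING1B peak. Its second value therefore describes a neighbouring peak of 5311 bp.

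In replicate 2 the same sequence was covered by broader peaks. The replicate 2 peak over a region had a median width of 2788 bp, was wider than the replicate 1 peak for 86.1% of the regions, and covered 59.2% of them completely. Of the 14560 replicate 2 peaks that met a region, 11916 met 1 (median width 1518 bp), 2644 met 2 or more (6186 bp) and 158 met 5 or more (20778 bp). A peak of 61.9 kb assigned to Rybp (chr6:100029125-100091014, fold 3.51) held 15 PRC1-free distal regions, and a peak of 50.3 kb assigned to Col13a1, a collagen gene, held 13 (chr10:61967644-62017933). Peaks assigned to Nkx1-1, a homeobox gene (72.3 kb), and to Mroh5 (43.5 kb) held 12 each. A domain that 1 library lists whole is thus listed in the other as a row of short pieces. A replicate 2 peak of 10 kb or more lay over 15.8% of the PRC1-free distal regions, against 25.4% of distal regions with PRC1, which are wider. At like width the difference was smaller. The shares were 11.9 against 12.5% under 500 bp and 12.7 against 14.9% from 500 to under 1000 bp. They were 17.9 against 21.3% from 1000 to under 2000 bp and 33.6 against 41.1% at 2000 bp or more. The share over all H3K27me3 replicate 1 peaks was 13.9%, but many of those meet no replicate 2 peak at all, and among the 45982 that do it was 20.8%. Those 45982 include replicate 1 peaks of 10 kb or more, which the rule bars from the PRC1-free distal regions, so these shares do not compare like widths.

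The regions came in runs. Another PRC1-free distal region lay within 50 kb of 91.0% of them, at a median gap of 2852 bp, and any H3K27me3 replicate 1 peak lay within 50 kb of 98.4%, against 95.2% of all peaks of that replicate. Within 10 kb the first share was 75.2%. PRC1-free intron regions had another of their own class within 50 kb in 89.4% of cases, at a median gap of 3068 bp. Such closeness was thus not particular to distal sequence. For the 3669 distal regions with PRC1, a smaller class, the share was 66.8%. Linked at under 50 kb, the PRC1-free distal regions formed 4105 runs, of which 1643 were lone regions (9.02% of the regions). Runs of 10 to 49 regions numbered 430 and held 40.9% of the regions, and 21 runs of 50 or more held 7.91%. An H3K27me3 replicate 1 domain of 10 kb or more lay within 50 kb of 10.7% of the regions, against 9.23% of all peaks.

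The run with the most regions covered 663 kb between Mroh5 and Adgrb1 (chr15:73843968-74507285). Adgrb1 encodes an adhesion receptor of brain and phagocytes. The run held 116 regions, 62 assigned to Mroh5 and 54 to Adgrb1, with folds from 2.70 to 4.11 in replicate 1 (median 3.14) and from 2.53 to 4.45 in replicate 2 (median 3.26). Across its span, RING1B had 0 and 4 peaks in replicates 1 and 2, CBX8 had 1 and 43, and H3K27ac had 29 and 33, while 10 of the 116 regions met an H3K27ac peak. Replicate 2 listed 70 H3K27me3 peaks there, 18 of them of 10 kb or more.

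**Figure D2:**
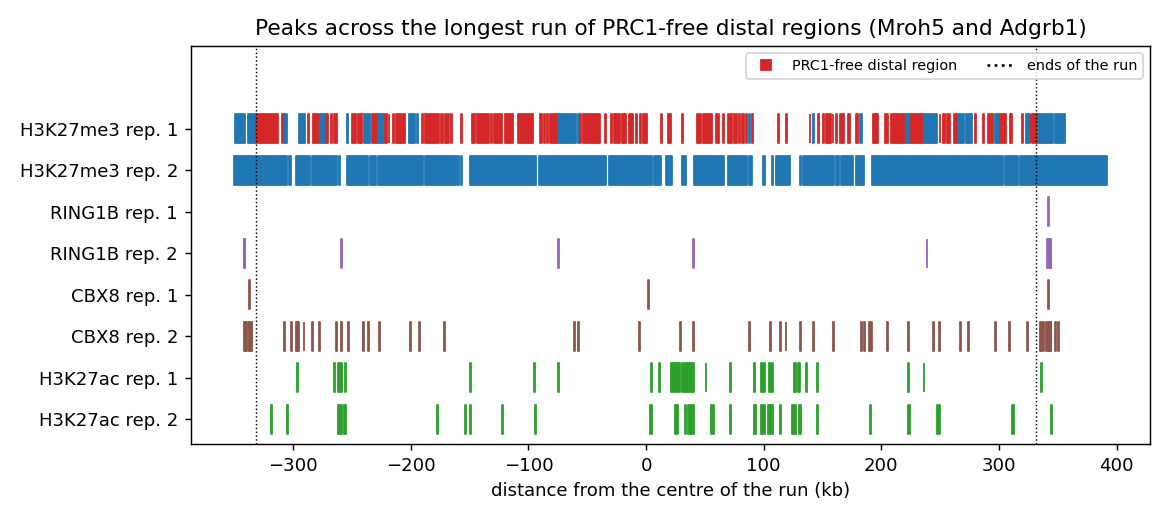
Peaks of the 8 libraries across the run with the most PRC1-free distal regions, by distance from its centre in kb, 1 row per library, with PRC1-free distal regions in red and dotted lines at the ends of the run; bars under 0.8 kb are drawn at 0.8 kb. The 116 regions form short bars in H3K27me3 replicate 1. The replicate 2 peaks over them are near-continuous in parts of the run and short and scattered in others. CBX8 has 43 peaks in replicate 2 against 1 in replicate 1.

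The next run covered 547 kb around Rybp and Prok2 (chr6:99674345-100221521) with 86 regions, 49 of them assigned to Rybp and 31 to Prok2. Rybp encodes a subunit of non-canonical PRC1, and Prok2 a secreted prokineticin needed for the growth of the olfactory bulb. Its median folds were 3.09 and 3.51, RING1B had 1 and 10 peaks in it, and CBX8 2 and 29. A run of 679 kb with 86 regions over 2900052N01Rik, 4931429L15Rik and Gm4791 (chr9:46332964-47012085) holds the Gm31432 start shown above. It had few H3K27ac peaks, 1 and 4, beside 0 and 2 RING1B peaks and 0 and 24 CBX8 peaks.

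H3K27ac, which the rule did not use, was scarce on the PRC1-free distal regions. A peak of H3K27ac replicate 1 overlapped 657 regions (3.61%, exact 95% interval 3.34 to 3.89) and a peak of replicate 2 overlapped 516 (2.83%, 2.60 to 3.08), a mean of 3.22% ± 0.547 (SD, n = 2). The intervals are Clopper-Pearson intervals, cover counting error only and treat neighbouring regions as independent. Over all H3K27me3 replicate 1 peaks the shares were 12.0 and 10.4%, and over those that replicate 2 also held they were 7.54 and 7.03%. Both H3K27ac libraries met the same region in 202 cases (1.11%), against 7.1% of all H3K27me3 replicate 1 peaks and 3.79% of those that replicate 2 also held. Distal regions with RING1B or CBX8 had shares of 14.3 and 12.2%, and PRC1-free distal peaks that H3K27me3 replicate 2 lacked had 11.8 and 9.77%. PRC1-free regions in introns, which number 10025, had 3.03 and 2.71%, so the low share was not particular to distal sequence. The differences from distal regions with PRC1 exceed the spread between the H3K27ac libraries, and no test was made, since regions of a list are not replicates and 2 libraries of an antibody are too few for one.

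The same order held within classes of width. Among regions under 500 bp the H3K27ac shares were 2.68 and 2.00% without PRC1 and 15.3 and 12.2% with PRC1. At 2000 bp or more they were 5.72 and 4.74% without and 14.8 and 13.8% with PRC1. Within each of the 4 width classes both replicates were lower on PRC1-free distal regions than on either other distal class. A requirement chosen after seeing the data, that no region overlap all 8 lists, took out 34 distal regions with PRC1 and left their shares at 13.5 and 11.3%. Which H3K27me3 peaks were admitted did matter: without the demand for replicate 2, the PRC1-free distal shares were 6.55 and 5.32%. With H3K27ac covering at least 50% of the region they were 1.26 and 0.905%, and with H3K27ac peaks at a −log10 q of at least 2 they were 1.85 and 1.72%.

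**Figure D3:**
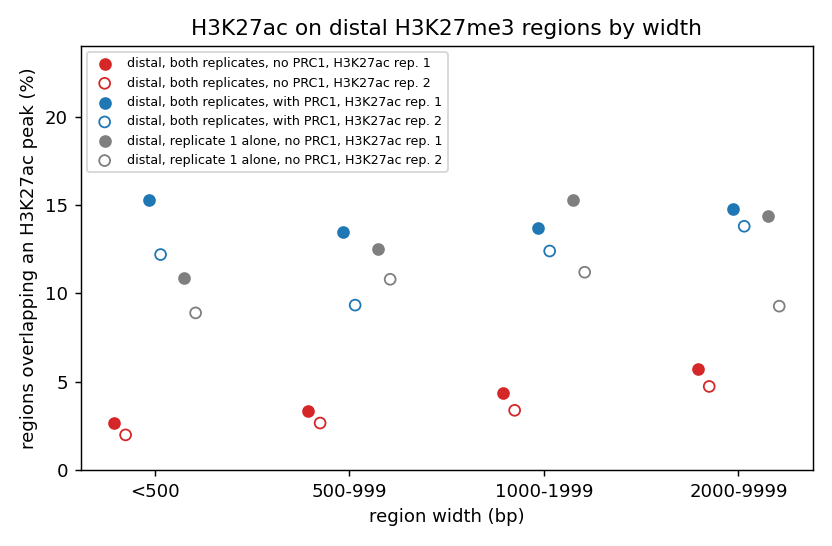
Share of distal H3K27me3 replicate 1 regions overlapping an H3K27ac peak (%), by region width in bp, for PRC1-free distal regions (red), distal regions with RING1B or CBX8 (blue) and distal PRC1-free peaks of replicate 1 alone (grey), with filled circles for H3K27ac replicate 1 and open circles for replicate 2. The red circles sit between 2.00 and 5.72%, below the blue and grey circles of the same width class.

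Where H3K27ac did overlap, its peaks were mostly low and covered a minor part of the region. The median H3K27ac fold at these regions was 2.55 and 2.85, against 2.86 and 3.23 over the whole lists, and H3K27ac covered a median of 33.5 and 28.0% of the region. Acetylated regions lay closer to gene starts than the others, at medians of 27308 against 35920 bp for replicate 1 and 30356 against 35662 bp for replicate 2. The strongest in both replicates was a region of 1686 bp, 3153 bp from the start of Gstt4, a glutathione transferase gene, with H3K27ac folds of 11.0 and 9.97 beside H3K27me3 folds of 2.84 and 2.66. Regions near Spata3 (H3K27ac 7.89 and 9.02), Lmtk2 (7.38 and 9.33), Mirt1 (8.43 and 7.18) and Rasal1 (6.98 and 8.27) followed.

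PRC1 lay close to many of these regions without touching them. The nearest peak of any RING1B or CBX8 list was at a median of 5676 bp, and 45.7% of the regions had one within 5 kb, against 55.0% of all H3K27me3 replicate 1 peaks, which include those that PRC1 overlaps. By list, the share within 5 kb was 3.09 and 16.5% for RING1B and 6.05 and 37.4% for CBX8, and the median gaps were 115007 and 20978 bp, and 68148 and 7444 bp. The shares stand in the order of the lengths of the 4 lists. With the rule tightened to no PRC1 peak within 5 kb, 9892 regions were left, with H3K27ac on 2.47 and 2.15% of them.

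Regions far from PRC1 had less H3K27ac and narrower H3K27me3 peaks than those near it, at a like fold in replicate 1. At gaps under 1 kb (1822 regions) H3K27ac overlapped 7.79 and 5.60%, at 1 to 5 kb (6507) 4.15 and 3.09%, at 5 to 20 kb (7529) 2.87 and 2.47%, and at 20 kb or more (2366) 1.23 and 1.14%. A replicate 2 peak of 10 kb or more lay over 23.7, 21.8, 12.5 and 3.93% of the regions in the same order. The median fold went from 3.02 to 2.85 in replicate 2 between the nearest and the farthest class and from 3.07 to 3.05 in replicate 1. The median width of the regions was 729.5, 743, 715 and 656 bp in the same order, so it did not fall at every step. Distance to a gene start moved with these classes, at medians of 31588, 29565, 35336 and 60376 bp, and its part in the result was not tested.

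**Figure D4:**
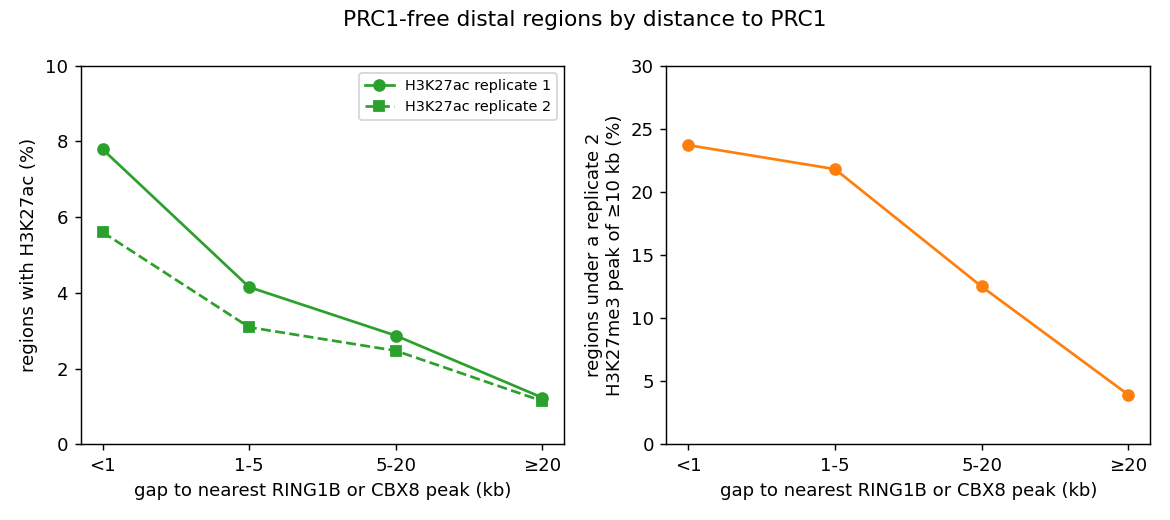
PRC1-free distal regions in 4 classes of distance to the nearest RING1B or CBX8 peak (kb): at left the share overlapping an H3K27ac peak in replicate 1 (circles) and replicate 2 (squares), at right the share under an H3K27me3 replicate 2 peak of 10 kb or more (%). Both H3K27ac shares fall from class to class, from 7.79 and 5.60% to 1.23 and 1.14%, and the share under wide peaks falls from 23.7 to 3.93%.

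By position, the regions lay a median of 35500 bp from the nearest gene start in the authors' annotation. Of them, 38.9% were over 50 kb away, 18.1% over 100 kb and 20 over 500 kb, the farthest being a region of 328 bp at 1572 kb from Adgrl3, an adhesion receptor gene. Upstream positions made up 62.0%, a share given without that of other distal peaks, so it is not shown to be particular to these regions. The RefSeq extents of GRCm38.p6 place 22.4% inside some gene, 15.8% in a long non-coding RNA and 5.31% in a protein-coding gene, against 28.2% inside some gene for distal regions with PRC1. On chromosomes 1 to 19, PRC1-free distal regions made up from 21.6% (chromosome 16) to 32.4% (chromosome 8) of the H3K27me3 replicate 1 peaks. Chromosome X held 19 of them, 10.1% of its 189 peaks.

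The authors assigned each region to the gene with the nearest start. This gave 4931 of 22517 annotated genes (21.9%) at least 1 region and 378 genes (1.68%) 10 or more. Annotated genes, called all genes below, are those that the authors' annotation names in a peak list. Genes named in none are not counted, so the shares of all genes are not shares of every mouse gene. Assignment to the nearest start depends on how much intergenic sequence lies around a gene. It does not show that the region acts on that gene. Maf, a bZIP transcription factor, had the most, with 84 regions covering 72.2 kb at 5681 to 386875 bp from its start, with folds of 2.74 to 4.11 and 2.43 to 4.40. Its promoter carried all 4 signals in both replicates: H3K27me3 (3.72 and 5.69), RING1B (8.95 and 16.0), CBX8 (9.40 and 6.25) and H3K27ac (3.22 and 5.33). Nkx6-1, a homeodomain factor, had 48 regions and a promoter with strong RING1B (37.2 and 45.6) and CBX8 (43.0 and 65.3), and no H3K27ac.

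Other genes with many regions had acetylated promoters. Rybp had 58 regions and promoter H3K27ac of 17.8 and 16.7. Rplp1, a ribosomal protein gene, had 48 regions and H3K27ac of 9.58 and 11.5, with no promoter H3K27me3 peak and RING1B in replicate 2 alone (5.76). Cdh13, a cadherin anchored to the membrane by a lipid, had 45 and H3K27ac of 14.9 and 14.6. Its promoter carried H3K27me3 in replicate 1 alone (2.83) and RING1B in replicate 2 alone (5.12). Nectin1, a cell adhesion gene, had 44 and H3K27ac of 13.3 in both replicates, with promoter RING1B of 4.96 and 7.22 and no promoter H3K27me3 peak. Mroh5 (62 regions), Adgrb1 (56), 4930572O13Rik (52) and 2900052N01Rik (43, as many as Sox1ot) complete the 10 genes with the most.

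Genes with more PRC1-free distal regions had H3K27me3 and PRC1 on their promoters more often. The share of genes with a promoter H3K27me3 peak in both replicates was 16.5% for genes with 0 regions, 42.3% for 1 to 4, 55.6% for 5 to 9 and 57.4% for 10 or more, against 22.8% of all genes. For promoters with RING1B and CBX8 in both replicates the shares were 2.83, 8.88, 13.1 and 20.1%, against 4.48% of all genes. RING1B alone or with CBX8 went from 10.5 to 29.6% (13.1% of all genes) and CBX8 from 5.03 to 24.1% (6.99% of all genes). H3K27ac went the other way, from 58.8 to 48.9%, against 57.8% of all genes. So regions without a listed RING1B or CBX8 peak were assigned more often to genes whose own promoters had such peaks. The joint RING1B and CBX8 promoter peaks were present at 76 of the 378 genes with 10 or more regions.

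For comparison, genes were also classed by their distal H3K27ac peaks. Genes with 0, 1 to 4, 5 to 9 and 10 or more distal H3K27ac peaks in both lists had promoter H3K27me3 in 22.4, 24.9, 21.9 and 14.8% of cases and promoters with RING1B and CBX8 in 3.80, 5.89, 5.91 and 4.99%. Promoter RING1B, with or without CBX8, went from 11.2 to 15.9, 18.7 and 22.1% over these classes, so a higher RING1B share was found at genes with many distal peaks of either mark. The intergenic space around each gene was not measured, and its part in these shares was not tested.

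**Figure D5:**
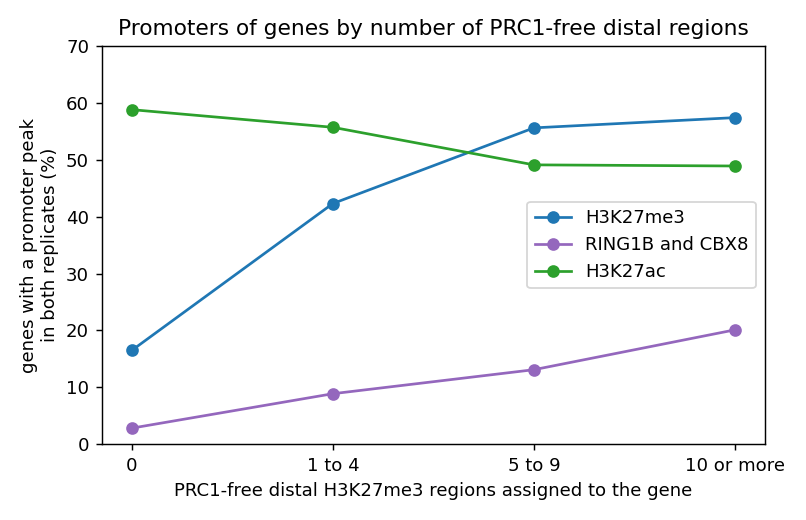
Share of genes (%) with a promoter peak in both replicates, by the number of PRC1-free distal regions assigned to the gene (17586, 3807, 746 and 378 genes), for H3K27me3, for RING1B and CBX8 together, and for H3K27ac. H3K27me3 goes from 16.5 to 57.4% and RING1B with CBX8 from 2.83 to 20.1%, while H3K27ac goes from 58.8 to 48.9%.

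Among 16 gene lists, transcription factors of the olfactory neuron lineage had the highest share with a region, 19 of 27 (70.4%), against 21.9% of all annotated genes. Distal H3K27ac in both lists was present for 51.9% of these factors, against 33.6% of all genes. Myt1l, a zinc finger factor of neurons, had 17 regions at 42347 to 385762 bp, with folds of 2.80 to 3.92 and 2.55 to 3.63. Lhx2, a LIM homeodomain factor required for olfactory receptor expression, had 10, with folds of 2.76 to 3.62 and 3.04 to 6.29, and a promoter with RING1B of 33.7 and 47.6. Zfp423, a zinc finger factor that partners with early B cell factors, had 7.

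Other developmental transcription factors had a region in 33 of 69 cases (47.8%, against 21.9% of all genes), and 6 (8.7%, against 1.68% of all genes) had 10 or more. Lmx1a, a factor of midbrain dopamine neurons, had 25 regions with folds of 2.81 to 3.91 and 2.38 to 3.44. Sall3, a zinc finger factor, had 17 and Foxa2, an endoderm and floor plate factor, 14. Potassium channel genes had a region in 13 of 28 cases (46.4%), led by Kcna1, a voltage-gated channel of axons, with 14. Axon guidance genes had one in 10 of 35 (28.6%), led by the semaphorin receptor gene Plxnc1 with 15, and signalling genes in 18 of 40 (45.0%), led by Fgf18, a fibroblast growth factor, with 22 and Bmp7, a bone morphogenetic protein, with 17. Distal H3K27ac in both lists was also above the 33.6% of all genes in each of these lists. It was present for 55.1% of the developmental factors and 39.3% of the potassium channel genes. For axon guidance and signalling genes it was 68.6 and 57.5%.

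Basal cell and progenitor genes had a region in 9 of 26 cases (34.6%, against 21.9% of all genes) and distal H3K27ac in both lists in 73.1% (33.6% of all genes). Kit itself had 12 regions covering 19.98 kb at 33258 to 196925 bp from its start, with folds of 2.89 to 3.38 in replicate 1 and 2.44 to 2.94 in replicate 2. Around Kit, 14 distal CBX8 peaks of replicate 2 and 0 of replicate 1 were listed, beside 2 and 5 distal RING1B peaks in replicates 1 and 2. Fgfr2 and Fgfr1, receptors of the FGF2 in the medium, had 6 and 4.

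Cell cycle genes stood at the level of all genes, 5 of 22 (22.7%), with 21 regions at Mki67, the proliferation marker, whose promoter carried H3K27ac of 16.6 and 13.0. Cadherins (5 of 18, 27.8%) and non-clustered protocadherins (3 of 11, 27.3%) were a little above that level in lists too short to rank. Glutamate and GABA receptor genes had a region in 5 of 29 cases (17.2%) and synaptic adhesion genes in 5 of 39 (12.8%).

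The 5 lists with the lowest shares were chemosensory receptors, defensins and housekeeping genes. For the receptor and defensin families, the totals are the genes that the annotation names in a peak list, not whole families. Olfactory receptors, the odorant receptors of the sensory neurons, had a region in 53 of 542 cases (9.78%, against 21.9% of all genes). They had distal H3K27ac in both lists in 14.2% (33.6% of all genes). Vomeronasal receptors had one in 11 of 245 (4.49%), taste and trace amine receptors in 1 of 31 (3.23%), and defensins in 3 of 42 (7.14%). Olfr1414 had the most among the olfactory receptors, with 6 regions of 2.81 to 4.35 and 2.95 to 3.41. Of 22 housekeeping genes, Ywhaz alone had a region (4.55%), at 67392 bp from its start.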

How the data were processed

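ChIP-seq peak lists of 8 libraries were analysed. The authors' tools were MACS2 2.1.1.20160309, BWA 0.7.12, Trim Galore 0.4.3 and bcl2fastq 2.17, with build mm10, per the submitters' processing notes. For options, duplicate reads and controls, details were not given in the sources used here. Per the file headers, each peak has the authors' fold enrichment over control and the authors' −log10 q-value, with an annotation to a gene. The histone lists reach q-values of 0.1, and the RING1B and CBX8 lists 0.01. Peak names in CBX8 replicate 2 and both H3K27ac lists contain the term combined, which no source explains, so those lists may pool libraries. A missing peak means that none was listed.

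Overlaps of at least 1 bp, gaps and counts were computed in Python 3.11.15 with pandas 2.3.3, by functions checked against brute force on simulated intervals. A region's replicate 2 fold is that of its highest overlapping peak. A promoter peak is one the authors annotated as promoter, up to 3 kb from the start, and its highest fold per gene is given. Sequences and gene extents came from RefSeq tables of GRCm38.p6. Named regions are those with the highest weaker fold, the widest, the farthest and the most acetylated; named genes are the 10 with the most regions and up to 3 per list. Other names were chosen after their values were seen, and some items the rules pick are not named. The members and lists were chosen with earlier results of these data known. The replicates are cell lines or passages, and 2 libraries per antibody were too few for a test.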

Additional observations from a re-analysis of the deposited data

How the results depend on the processing

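Of 106 values recomputed under other settings, 70 stayed within the limits used and 36 moved beyond them. The limit was 1.5 times for the number of regions, and the replicate spread or counting interval for other values. With both H3K27me3 lists at a −log10 q of at least 2, 3250 regions remained in number, with a median width of 948 bp, folds of 3.47 and 3.15, a distance to a start of 32478 bp, H3K27ac on 3.02 and 2.03%, a neighbour within 50 kb for 68.0% and a replicate 2 peak of 10 kb or more over 25.8%. With no PRC1 peak within 5 kb, the values were 9892 regions, 700 bp, 41133 bp, 2.47 and 2.15%, 83.9% and 10.4%, in the same order without the folds. With regions at least 50% covered by replicate 2, width was 702 bp, the neighbour share 90.0% and the wide-peak share 18.5%; with RING1B and CBX8 peaks at a −log10 q of at least 5 these were 741 bp, 91.7% and 16.7%. H3K27ac covering at least 50% of a region gave 1.26 and 0.905%, and H3K27ac peaks at a −log10 q of at least 2 gave 1.85 and 1.72%. The nearest RefSeq gene extent lay 7324 bp away, and 75.2% had a neighbour within 10 kb.

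Leaving out 1 list of the rule at a time gave 18239 to 28383 regions, widths of 609 to 748 bp, distances of 35153 to 38831 bp, neighbour shares of 91.0 to 91.8%, wide-peak shares of 15.8 to 16.7%, and H3K27ac shares of 3.61 to 6.55% and 2.85 to 5.32%. The highest count and H3K27ac shares came without H3K27me3 replicate 2, a setting under which the replicate 2 fold and the wide-peak share have no value. The cause of these shifts was not tested, beyond the changed number of regions. No paired analysis was possible because no result comes from a test; libraries of different antibodies share a culture in some cases, though not by replicate number throughout. Read depth is unknown, so a region without a listed peak may lie below what a library could detect.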
